A study of Mus musculus with 4 samples.

Results

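The cells described here were unmarked mesenchymal cells of mouse back skin, split by whether a transcript of Dpp4 was counted in them. Of 17130 cell barcodes in 4 single-cell libraries, 13877 had at least 500 genes, at least 1000 unique molecular identifiers (UMIs, counted RNA molecules) and under 10% mitochondrial UMIs. Of these, 8089 were taken as mesenchymal because they held at least 5 UMIs of the collagen gene Col1a1 and none of the leukocyte gene Ptprc. A total of 7023 mesenchymal cells held a UMI of the eYFP reporter and 1066 held none, and the latter are called unmarked. Among the 1066 unmarked cells, 250 held at least 1 Dpp4 UMI (Dpp4+) and 816 held none (Dpp4-zero). The cells were thus selected on their measured counts of Dpp4, Col1a1, Ptprc and eYFP, which are given only as a description.

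The study profiled sorted dermal cells of C57BL/6J mice at 2, 12 and 18 months of age to follow mesenchymal progenitors of the hair follicle with age. All mice carried the tamoxifen-inducible Cre α-SMACreERT2, driven by the smooth muscle actin promoter, and were given 1 mg of 4-OHT at postnatal days 3 and 4. The 2-month and 18-month libraries made with 10x version 2 chemistry came from mice labelled α-SMACreERT2:RosaYFP, and another 2-month library and the 12-month library, made with version 3 chemistry, from mice labelled α-SMACreERT2:RosaTDTomato. These are called the 2-month v2, 18-month v2, 2-month v3 and 12-month v3 libraries, and values given for 4 libraries follow that order. Each library came from 10000 sorted cells of 2 mice, with 5000 cells from a reporter-positive gate and 5000 from a gate positive for Cd26, each gate also positive for Itga9 or Cd200. The mice of a library were pooled, so a library is the only replicate. Recombination marks only cells in which the smooth muscle actin promoter was active when tamoxifen was given, and their descendants, so an unmarked cell can also be one in which recombination or reporter RNA was missed.

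Dpp4 encodes the membrane serine peptidase known as Cd26, which cuts a dipeptide from the start of chemokines and peptide hormones that carry proline or alanine in the penultimate position. It is a surface marker of fibroblast lineages in mouse skin, of papillary and fascia fibroblasts and of progenitor-like fibroblasts that also carry Pi16. The dermal sheath is the contractile connective tissue cup around the hair follicle, and the dermal papilla is the signalling centre at its base, and both arise from fibroblasts. Because Cd26 protein was itself used in the sort, a Dpp4-zero cell here is one in which no transcript was counted, and not a cell shown to lack the protein.

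The 250 Dpp4+ cells came as 18, 71, 46 and 115 cells and the 816 Dpp4-zero cells as 76, 204, 246 and 290 cells of the 4 libraries. Median depth was 6391, 7182, 9536 and 10803 UMIs per Dpp4+ cell against 5392, 5991, 9067 and 9847 per Dpp4-zero cell, so Dpp4+ cells were the deeper ones in every library. The version 3 libraries shared 84 barcodes, of which 1 was an unmarked cell, a Dpp4+ cell at 2 months, and the version 2 libraries shared 7. Doublets were not removed: a Scrublet doublet score in the top 3% of its library was held by 3, 2, 5 and 5 unmarked cells. The eYFP entry was counted in all 4 libraries, also in those labelled TdTomato, at 1935 to 4327 CPM (UMIs of the gene per 1000000 UMIs) in marked mesenchyme. Barcodes numbered 1906 in the 2-month v2 and 2727 in the 18-month v2 files, where the labels give 2604 and 3776 recovered cells. The series' design text gives 2707 for its first sample and 1906 for its second, the reverse of the files' order. Whether the ages of the 2-month v2 and 18-month v2 libraries are as labelled could not be settled, and every age value below that uses them rests on their labels.

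Unmarked mesenchyme held a Dpp4 UMI in 19.1% of cells at 2 months v2, 25.8% at 18 months v2, 15.8% at 2 months v3 and 28.4% at 12 months v3. The exact 95% Clopper-Pearson intervals, which cover counting error only, ran from 11.8 to 28.6%, 20.7 to 31.4%, 11.8 to 20.4% and 24.1 to 33.1%. Marked mesenchyme, the cells with eYFP, stood at 5.77%, 11.9%, 7.25% and 8.19% at greater depth, below unmarked mesenchyme of the same library in 4 of 4. Cells had entered through a reporter-positive gate or a Cd26-positive gate, so the sort itself favoured a larger share in unmarked cells. The cells gated for other types below passed the same sort. Pericyte-gated cells, which should lack the gene, held a Dpp4 UMI in 1 of 153, 0 of 126, 0 of 30 and 0 of 11 cells, at median depths of 5514, 4014, 7384 and 6550 UMIs. A count of 0 of 126 allows a share of pericyte-gated cells with a UMI of up to 2.38%, counted as 3 cells, or 2.89% by the exact interval, at a depth below that of unmarked mesenchyme (6383 UMIs). Dendritic-gated cells, in which Dpp4 is a known surface protein, reached 23.6%, 17.4%, 16.1% and 17.4%. Keratinocyte-gated cells reached 28.6% at 2 months v2, where their median depth was 19242 UMIs, and 3.92 to 7.61% in the other libraries.

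**Figure D1:**
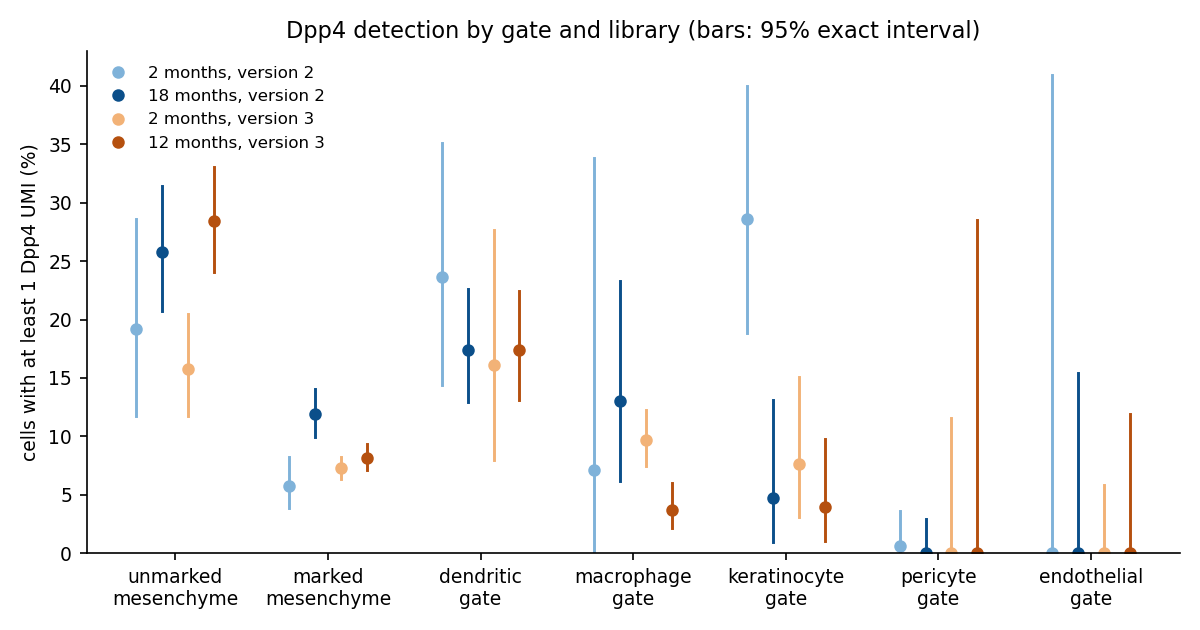
Percent of cells with at least 1 Dpp4 UMI (y axis) in unmarked mesenchyme, marked mesenchyme and cells gated for other types (x axis), 1 point per library with its exact 95% interval. Unmarked mesenchyme lies between 15.8% and 28.4% and marked mesenchyme between 5.77% and 11.9%, while pericyte-gated and endothelial-gated cells lie at or near 0. The sort by reporter or Cd26 favoured a larger share in unmarked than in marked cells.

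The library labelled as older had the larger share within each chemistry. At 12 months v3 the interval of 24.1 to 33.1% lay above the 11.8 to 20.4% of 2 months v3, while the intervals of the version 2 libraries overlapped. With each cell thinned to 3000 UMIs, the expected shares were 9.14%, 14.2%, 6.65% and 11.4%, with 0, 19, 12 and 11 shallower cells left out. The order within each chemistry was thus the same at equal depth. Each age and chemistry had 1 library, so no test between ages was made on the share. Most Dpp4+ cells lay at the threshold: 179 of 250 held exactly 1 Dpp4 UMI and 71 held 2 or more. Just outside the threshold stood the 816 cells at 0. Summed over Dpp4+ cells, Dpp4 stood at 150.1, 174, 129 and 131 CPM, a level fixed by the choice of the cells. The Dpp4 gene lies at chr2:62330073-62412231 on the minus strand (GRCm38).

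UMIs of Dpp4+ and of Dpp4-zero cells were summed within each library, and the 4 pairs of sums were compared in edgeR's quasi-likelihood test with library as a block, over 8207 genes, with Benjamini-Hochberg adjustment at 0.05. In Dpp4+ cells 132 genes were higher (1.61% of genes tested) and 37 were lower (0.451%), and 159 of these 169 genes (2.06%) had the same sign in all 4 libraries. With no test applied, 625 of the 8207 genes (7.62%) were higher in all 4 libraries and 1049 (12.8%) were lower. A gene at 0 UMIs in only 1 class of a library counted as lower in that class. Dpp4+ sums were the smaller ones in every library, as at 2 months v2 with 139886 against 551856 UMIs. The part of such zeros in these 2 counts was not tested. Higher genes included hyaluronan and matrix genes (Has1, Efemp1, Dcn, Lum), metallothioneins (Mt1, Mt2), retinoid and aldehyde enzymes (Aldh1a1, Aldh3a1, Cyp26b1) and immune mediators (C3, Ccl7, Ptx3). Lower genes included Coch, the endothelin receptor gene Ednrb, contractile genes (Actg2, Mylk, Tagln) and Igfbp4. Counts of called list members below stand beside this share of 2.06% of all genes, so 0 called in a short list is near it. Every difference below is a log2 fold of Dpp4+ over Dpp4-zero cells from this fit, with its SE, and every adjusted p is from this edgeR test unless another comparison is named.

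**Figure D2:**
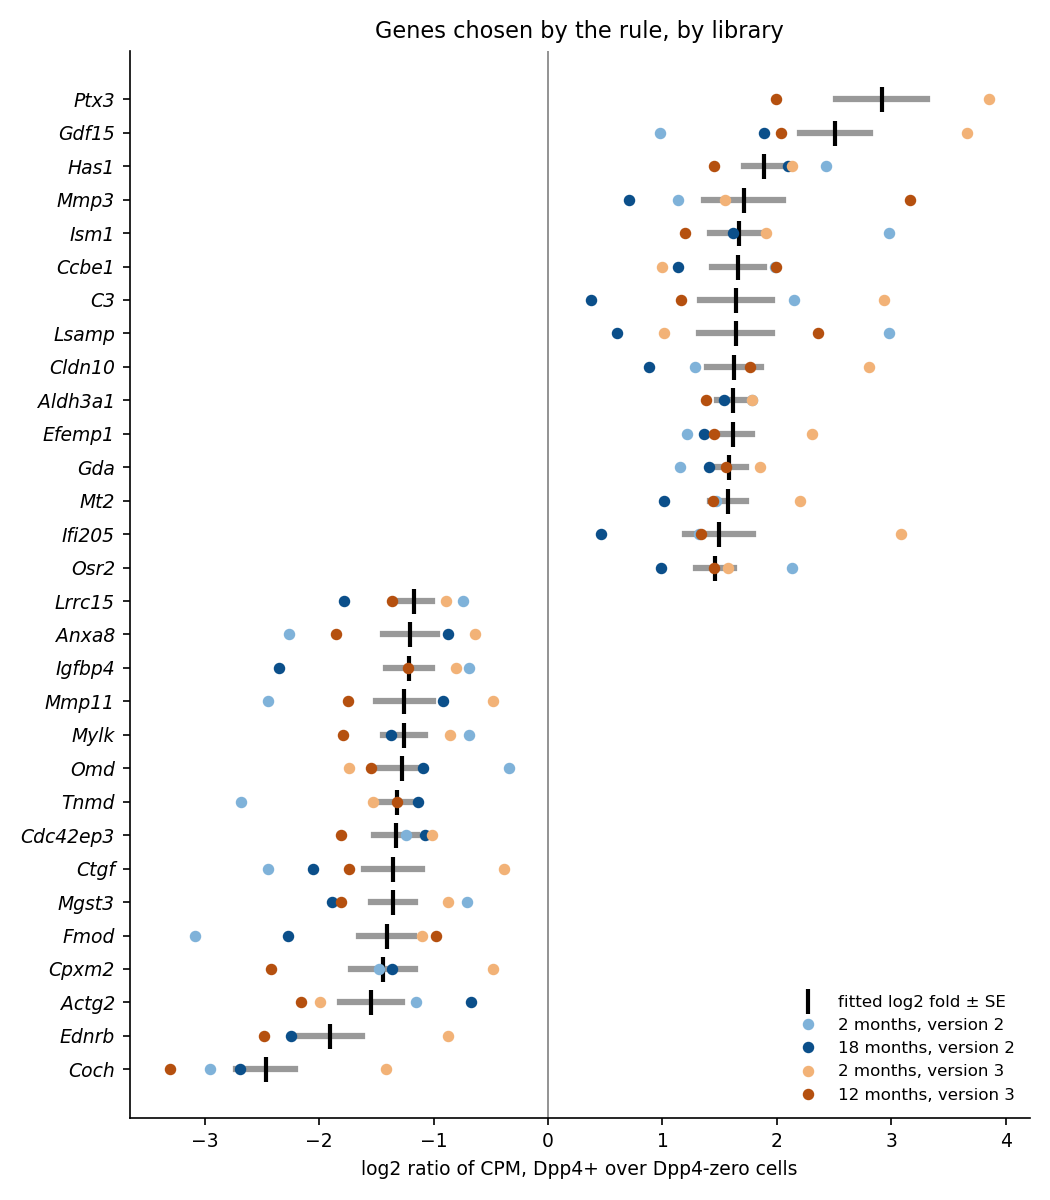
Log2 ratio of CPM in Dpp4+ over Dpp4-zero cells (x axis) for 15 higher and 15 lower genes (y axis), with 1 point per library. A black tick and grey bar give the fitted log2 fold ± SE. Genes were drawn from called genes with an average log2 CPM of at least 5 and the same sign in all 4 libraries. Among these, the largest folds in each direction are shown, so called genes of mixed sign such as Krt15 are absent. Points are left out where a sum held 0 UMIs, as for Ptx3 in the version 2 libraries. That the points of a gene lie on the same side of 0 follows from how the genes were chosen.

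The classes also differed in the mesenchymal markers they held. A sheath gate (a UMI of Tnmd or Itga8, or at least 5 of Acta2) took 22.2%, 35.2%, 54.3% and 40.9% of Dpp4+ cells against 55.3%, 55.4%, 60.6% and 63.4% of Dpp4-zero cells. A papilla gate (a UMI of Corin or Sox2) took 33.3%, 2.82%, 41.3% and 27.0% against 35.5%, 18.1%, 45.5% and 33.4%. Both gates thus held a smaller share of Dpp4+ cells in all 4 libraries. When cells of either gate were left out, 10, 46, 13 and 58 Dpp4+ cells remained and 0 of 5252 genes passed the edgeR test, with 421 at an unadjusted p under 0.05. The 126 of 132 higher genes still tested then had a median log2 fold of 0.71, against 1.04 with all cells, and the 26 of 37 lower genes stood at -1.20 against -1.08. Without the 12-month v3 library, 4 genes were higher and 0 lower, and the 121 higher and 33 lower genes still tested had median log2 folds of 1.00 and -0.93. Without the 18-month v2 library 71 genes were higher and 29 lower, and without the 2-month v3 library 154 and 56. Of the 169 called genes 65 kept their call without the 2-month v2, the 18-month v2 and the 2-month v3 library in turn. Only Has1, Dcn, Mt1 and Aldh3a1 also kept it without the 12-month v3 library. Genes described below that lost their call without one of the first 3 are given with that adjusted p. Fgfr4, Abcc9 and Cdkn2a were not tested without the 18-month v2 library, where they fell below the filter on low counts. The part that sheath and papilla cells had in each result below was not tested beyond these values.

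Has1 had one of the largest differences, and other hyaluronan genes differed less. Has1, a hyaluronan synthase, stood at 107, 93.1, 115 and 373 CPM in Dpp4+ cells of the 4 libraries and at 19.9, 21.8, 26.2 and 136 CPM in Dpp4-zero cells. Each library's Dpp4+ cells were above its own Dpp4-zero cells, and the ranges of the classes overlapped only through the 12-month v3 library, which was highest in both. The log2 fold was 1.89 ± 0.18 (SE, adjusted p = 0.00207). Tnfaip6, which binds and crosslinks hyaluronan, stood at 279, 725, 287 and 1772 against 199, 497, 113 and 556 CPM, a log2 fold of 1.10 ± 0.19 (SE, adjusted p = 0.0194). Ugdh makes the UDP-glucuronic acid from which hyaluronan is built, and its log2 fold was 0.97 ± 0.15 (SE, adjusted p = 0.0127). At 2 months v2, 1 of 18 Dpp4+ cells held 68.6% of the Ugdh UMIs and 1 held 46.7% of the Has1 UMIs. Of 12 genes in the hyaluronan list 8 were tested, 3 were higher and 0 lower, and the median log2 fold was 0.51, beside -0.01 over all genes tested. Has2 was at 0.89 without passing, and the receptor gene Cd44 at -0.12.

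Small leucine-rich proteoglycans of the fibroblast matrix changed in both directions, and Dcn was the most abundant. Decorin, the small leucine-rich proteoglycan that coats collagen fibrils, stood at 7049, 20174, 3056 and 12587 CPM in Dpp4+ cells and at 3872, 10588, 1755 and 5664 CPM in Dpp4-zero cells. All 4 libraries rose by similar amounts, with a log2 fold of 0.98 ± 0.07 (SE, adjusted p = 0.000626). Its relative lumican (Lum) stood at 2023, 4816, 393 and 2030.4 against 1162, 2628, 249 and 831 CPM, a log2 fold of 0.96 ± 0.11 (SE, adjusted p = 0.00513), and Podn at 0.99 also passed. Other proteoglycans of the same family were lower. Fmod (fibromodulin) stood at 14.3, 19.7, 46.6 and 27.9 against 121, 95.1, 99.9 and 55.1 CPM, lower in each library, with a log2 fold of -1.41 ± 0.24 (SE, adjusted p = 0.0193). Omd (osteomodulin) had a log2 fold of -1.28 ± 0.20 (SE, adjusted p = 0.0137), and Bgn (biglycan) one of -0.57 ± 0.08 (SE, adjusted p = 0.00841). Of 13 members 10 were tested, 3 were higher and 3 lower, with a median of 0.14. The family thus split in direction, and its summed level was higher in Dpp4+ cells in 4 of 4 libraries. Without the 18-month v2 library the adjusted p of Fmod was 0.0649 and that of Podn 0.223, and without the 2-month v2 library that of Podn was 0.0901.

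Elastic fibre and collagen genes moved singly. Efemp1, which encodes the extracellular matrix protein fibulin-3, stood at 479, 765, 158 and 519 CPM against 207, 297, 31.9 and 189.9 CPM, with a log2 fold of 1.61 ± 0.17 (SE, adjusted p = 0.00306). It was higher in each library, and the 2-month v3 library was lowest in both classes. Efemp1 and Fbln1 (0.75) were the 2 elastic fibre genes of 20 tested that passed, and the list's median was 0.00. Among 17 fibrillar collagen genes and their modifiers 3 were higher and 1 lower, with a median of 0.19. The higher ones were Col3a1 (0.69), the collagen prolyl hydroxylase gene P4ha2 (1.05) and the procollagen processing enhancer gene Pcolce2 (1.29). Col11a1, which the sheath list also holds, was lower at -0.93. Of 20 basement membrane genes tested, 0 passed in either direction, with a median of -0.04. Without the 2-month v2 library the adjusted p was 0.122 for Col3a1 and 0.105 for Fbln1, and without the 18-month v2 library 0.116 and 0.0944.

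Matrix proteases and their inhibitors were mostly higher where they passed. Mmp3, the matrix metalloproteinase stromelysin-1, stood at 315, 795, 68.1 and 459.9 CPM against 143, 488, 23.3 and 51.4 CPM, higher in each library. Its log2 fold was 1.71 ± 0.34 (SE, adjusted p = 0.0364), and in the 2-month v3 library 1 of the 46 Dpp4+ cells held 57.9% of its UMIs. Mmp2, a gelatinase, Mmp27, Adamts1 and the inhibitor genes Timp2 and Serping1 were also higher, with log2 folds of 0.77, 1.30, 0.95, 0.65 and 0.61. Mmp11 was the single member lower, at -1.26 ± 0.25 (SE, adjusted p = 0.0328). Of 30 members 24 were tested, 6 were higher and 1 lower, with a median of 0.29. The adjusted p of Mmp3 was 0.0580, 0.0504 and 0.104 without the 2-month v2, the 2-month v3 and the 12-month v3 library. That of Mmp2 was 0.0992, of Mmp11 0.0622 and of Serping1 0.0540 without the 2-month v2 library, and that of Mmp2 0.167 and of Mmp27 0.0908 without the 18-month v2 library.

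The metallothioneins Mt1 and Mt2, small cysteine-rich proteins that bind zinc and copper, rose together. Mt1 stood at 2402, 3588, 2059 and 2431 CPM in Dpp4+ cells and at 1127, 1698, 635 and 954 CPM in Dpp4-zero cells, with a log2 fold of 1.35 ± 0.10 (SE, adjusted p = 0.000626). Mt2 stood at 1158, 1349, 690.1 and 710.4 CPM against 419, 669, 149.9 and 261 CPM, with a log2 fold of 1.57 ± 0.15 (SE, adjusted p = 0.00224). In both genes each library's Dpp4+ cells were above its Dpp4-zero cells. One cell held 47.5% of the Mt2 UMIs of Dpp4+ cells in the 2-month v3 library. The genes neighbour each other, Mt2 at chr8:94172664-94173568 and Mt1 at chr8:94179082-94180327, both on the plus strand of GRCm38. Transcription of metallothionein genes is known to be driven by MTF1, a zinc-sensing factor that binds metal response elements, so the promoters of this pair are shown, 250 bases before to 50 after the start, from RefSeq on GRCm38.p6, plus strand, 5′ to 3′. Capitals mark matches to the element's core, TGCGCNC or TGCACNC, on either strand.
Mt1, chr8:94178839-94179138: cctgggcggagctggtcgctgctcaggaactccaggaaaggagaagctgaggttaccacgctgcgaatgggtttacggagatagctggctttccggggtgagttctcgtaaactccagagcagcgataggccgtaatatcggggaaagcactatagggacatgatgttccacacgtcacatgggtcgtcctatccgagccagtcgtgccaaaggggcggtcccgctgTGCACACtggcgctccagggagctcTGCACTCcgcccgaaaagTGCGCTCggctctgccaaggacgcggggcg
Mt2, chr8:94172368-94172667: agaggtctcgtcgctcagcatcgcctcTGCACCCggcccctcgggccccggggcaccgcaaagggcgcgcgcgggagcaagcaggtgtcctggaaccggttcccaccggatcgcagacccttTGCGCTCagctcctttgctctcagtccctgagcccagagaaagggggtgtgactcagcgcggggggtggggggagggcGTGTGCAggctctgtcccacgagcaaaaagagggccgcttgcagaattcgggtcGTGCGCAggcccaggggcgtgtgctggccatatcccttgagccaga
The Mt1 promoter held 3 matches and the Mt2 promoter 4. Among 32851 promoters of the same length, 25.7% held at least 1 match, 1.97% at least 3 and 0.517% at least 4. The matches are a description of these letters, and binding was not measured.

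Some genes of retinoid and aldehyde metabolism were higher as well. Aldh1a1, a retinaldehyde dehydrogenase that makes retinoic acid, stood at 143, 301, 32.3 and 106 CPM against 23.6, 166, 11.5 and 42.7 CPM. It was higher in each library, with a log2 fold of 1.38 ± 0.20 (SE, adjusted p = 0.00968). Cyp26b1, which breaks retinoic acid down, stood at 379, 675, 244 and 1021 CPM against 101, 263, 180.2 and 422 CPM, a log2 fold of 1.26 ± 0.21 (SE, adjusted p = 0.0161). Enzymes for making and for clearing retinoic acid were thus both higher. Rarres2, a retinoid-responsive gene that encodes chemerin, had a log2 fold of 0.95 ± 0.15 (SE, adjusted p = 0.0118), and Crabp1, which binds retinoic acid in the cell, one of 0.68 ± 0.11 (SE, adjusted p = 0.0124). Of 13 members 10 were tested, 4 were higher and 0 lower, with a median of 0.36. The summed level of the list was 2409, 3179, 2577 and 2823 CPM in Dpp4+ cells and 1464, 1813, 1826 and 1462 CPM in Dpp4-zero cells, and all 4 Dpp4+ sums lay above all 4 Dpp4-zero sums. When Dpp4-zero cells were matched to Dpp4+ cells on UMI totals, the median over 9 members was -0.20, with 1 higher. Without the 18-month v2 library Cyp26b1 had an adjusted p of 0.0609.

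Aldh3a1, an aldehyde dehydrogenase that detoxifies products of lipid oxidation, stood at 193, 274, 19.7 and 149.7 CPM against 56.2, 94.4, 5.73 and 57.4 CPM, with a log2 fold of 1.62 ± 0.14 (SE, adjusted p = 0.00175). Gda, the guanine deaminase of purine breakdown, stood at 64.3, 161, 34.1 and 166 CPM against 29.0, 61.0, 9.42 and 56.4 CPM, with a log2 fold of 1.58 ± 0.15 (SE, adjusted p = 0.00207). Osr2, a zinc finger transcription factor, had 143, 206, 34.1 and 83.0 CPM against 32.6, 104, 11.5 and 30.4 CPM and a log2 fold of 1.46 ± 0.17 (SE, adjusted p = 0.00436). Each of these genes was higher in all 4 libraries, and in the version 2 libraries all 3 also exceeded their Dpp4-zero levels of both ages. Ism1 and Ccbe1, which encode secreted proteins, had log2 folds of 1.67 ± 0.25 (SE, adjusted p = 0.0114) and 1.66 ± 0.23 (SE, adjusted p = 0.009). The adhesion molecule gene Lsamp had one of 1.64 ± 0.32 (SE, adjusted p = 0.0311), the tight junction gene Cldn10 one of 1.63 ± 0.24 (SE, adjusted p = 0.0104) and the interferon-inducible gene Ifi205 one of 1.50 ± 0.30 (SE, adjusted p = 0.034). In the 2-month v3 library 1 cell held 71.9% of the Cldn10 UMIs and 51.7% of the Ifi205 UMIs of Dpp4+ cells. Without the 2-month v2 library the adjusted p was 0.0529 for Lsamp and 0.0674 for Ifi205, and without the 18-month v2 library 0.0617 for Ism1.

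Some immune mediators that fibroblasts can make were higher, several of them from few cells. Ptx3, a secreted pentraxin of innate immunity, had the largest log2 fold of the 15 higher genes plotted above, 2.91 ± 0.40 (SE, adjusted p = 0.00848). It stood at 21.4, 12.5, 177 and 114 CPM against 0, 0, 12.3 and 28.7 CPM. Dpp4-zero cells of the version 2 libraries held none, against 3 UMIs in Dpp4+ cells at 2 months v2 and 7 at 18 months v2, the latter at least 5.76-fold higher against a floor of 3 UMIs per library. One cell held 81.8% of the Ptx3 UMIs of Dpp4+ cells in the 2-month v3 library and another 52.4% in the 12-month v3 library. Gdf15, a stress-induced cytokine of the TGF-beta family, stood at 7.15, 21.5, 93.2 and 116 CPM against 3.62, 5.81, 7.37 and 28.4 CPM, with a log2 fold of 2.51 ± 0.31 (SE, adjusted p = 0.00539). It rested on 1 UMI in the 2-month v2 library, and 1 cell held 63.5% of it in the 2-month v3 library.

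Complement component C3 stood at 129, 35.8, 113 and 123 CPM against 29.0, 27.6, 14.7 and 54.7 CPM, with a log2 fold of 1.64 ± 0.31 (SE, adjusted p = 0.0304). At 2 months v2, 1 of 18 Dpp4+ cells held 61.1% of the C3 UMIs. C4b had a log2 fold of 1.10 ± 0.17 (SE, adjusted p = 0.0117), and with Serping1, the C1 inhibitor, 3 of 11 tested among 15 complement genes were higher and 0 lower, with a median of 0.35. Ccl7, a monocyte chemokine, stood at 78.6, 568, 194 and 1389 CPM against 34.4, 309, 109 and 493 CPM, higher in each library, with a log2 fold of 1.15 ± 0.15 (SE, adjusted p = 0.00747). Il6 stood at 7.15, 69.9, 28.7 and 247 CPM against 14.5, 29.0, 16.0 and 35.0 CPM, higher in 3 of 4 libraries, with a log2 fold of 1.93 ± 0.36 (SE, adjusted p = 0.0286). Csf1, the macrophage growth factor, was higher at 0.90 ± 0.16 (SE, adjusted p = 0.021). Of 22 chemokine and cytokine genes 15 were tested, these 3 were higher and 0 lower, with a median of 0.90. Ccl2 at 0.66, Cxcl1 at 1.05 and Cxcl2 at 2.08 did not pass. Without the 12-month v3 library Il6 was at 1.00 and the list's median at 0.41 over 13 tested, and without papilla-gated and sheath-gated cells the median was 0.33 over 13, with 0 called in both. The adjusted p of C3 was 0.0696 without the 2-month v2 and 0.208 without the 12-month v3 library, and that of Csf1 0.0519 without the 2-month v3 library.

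Markers of fibroblast subtypes did not move as one. Of 25 genes of the Pi16-type list 18 were tested. The list holds markers of fascia and progenitor-like fibroblasts, and 7 were higher and 0 lower, with a median of 0.27. The higher ones were Anxa3 (1.39), Pcolce2 (1.29), the transcription factor gene Creb5 (1.23), Ly6c1 (1.21), the chemokine scavenger gene Ackr3 (0.97), Clec3b (0.93) and Igfbp6 (0.85). Ly6c1 stood at 672, 1010.2, 317 and 781 CPM against 319, 568, 97.5 and 374 CPM, higher in each library. The naming marker Pi16 stood at 636, 193, 231 and 831 CPM against 391, 404, 188 and 622 CPM, with a log2 fold of 0.14 ± 0.22 (SE, adjusted p = 0.911). It was lower in Dpp4+ cells of the 18-month v2 library and higher in the others. At 2 months v2, 1 of 18 Dpp4+ cells held 55.1% of the Pi16 UMIs, and cells at 1 Dpp4 UMI stood at 273 CPM, below Dpp4-zero cells. Cd248 at 0.23 and Sema3c at 0.24 did not pass either. A Pi16 gate (a UMI of Pi16) took 27.8%, 43.7%, 30.4% and 56.5% of Dpp4+ cells against 25.0%, 38.2%, 13.8% and 36.2% of Dpp4-zero cells. Its share was thus larger in Dpp4+ cells, the deeper ones, in all 4 libraries. The adjusted p of Ackr3 was 0.149 without the 18-month v2 library, and that of Clec3b was 0.0600 without the 2-month v2 and 0.0540 without the 2-month v3 library.

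General fibroblast genes had a median of 0.60 over 12 tested, of which 5 were higher and 0 lower. S100a4 stood at 1594, 1995, 285 and 2429.8 CPM against 665, 954, 184 and 849 CPM, with a log2 fold of 1.18 ± 0.14 (SE, adjusted p = 0.00513). The dermatopontin gene Dpt was at 0.96 ± 0.14 (SE, adjusted p = 0.0117) and Ly6a, which encodes the stem cell antigen Sca-1, at 0.87 ± 0.10 (SE, adjusted p = 0.00513). Cd34 (0.72) and Fbln1 (0.75) were the others, while Pdgfra, the general receptor marker of fibroblasts, was at 0.34 ± 0.12 (SE, adjusted p = 0.24). The adjusted p of Cd34 was 0.0542 without the 2-month v2 and 0.0556 without the 2-month v3 library. Of 12 lower reticular and preadipocyte genes 1 was higher, Ly6a, and 10 of 12 lay below 0, with a median of -0.38. Of 10 papillary fibroblast genes 1 was higher, Crabp1, with a median of 0.35.

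Several sheath genes were lower in Dpp4+ cells. Tnmd, a transmembrane protein of tendon and sheath cells, stood at 21.4, 193, 34.1 and 51.2 CPM against 138, 426, 98.3 and 128 CPM, with a log2 fold of -1.32 ± 0.19 (SE, adjusted p = 0.0104). Actg2, a smooth muscle actin, had 35.7, 48.4, 28.7 and 24.0 CPM against 79.7, 77.0, 114 and 107 CPM and a log2 fold of -1.55 ± 0.27 (SE, adjusted p = 0.021). Mylk, the myosin light chain kinase of contraction, was at -1.26 ± 0.19 (SE, adjusted p = 0.0114) and Tagln, an actin-binding protein of smooth muscle, at -1.12 ± 0.22 (SE, adjusted p = 0.0311). Acta2, whose promoter drives the Cre, stood at 250.2, 249, 697 and 299 CPM against 612, 618, 827 and 1495 CPM, lower in each library, with a log2 fold of -1.24 ± 0.27 (SE, adjusted p = 0.0515) that did not pass. Of 16 sheath genes 14 were tested, 5 were lower and 1, Abi3bp, was higher (1.02), with a median of -0.88. The list's summed level was 2395, 1904, 3302 and 2505 CPM in Dpp4+ cells and 2888, 3101, 4369.7 and 5503 CPM in Dpp4-zero cells, lower in 4 of 4 libraries, beside the smaller sheath-gate shares given above. Without the 18-month v2 library the adjusted p was 0.106 for Tagln and 0.103 for Abi3bp, and without the 2-month v3 library 0.0567 for Actg2.

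Coch, which encodes the secreted protein cochlin and marks fibroblasts next to the follicle, had the largest fall among the 15 lower genes plotted above. It stood at 21.4, 53.7, 43.0 and 14.7 CPM in Dpp4+ cells and 167, 347, 115 and 145 CPM in Dpp4-zero cells, and every Dpp4+ value lay below every Dpp4-zero value. The log2 fold was -2.47 ± 0.26 (SE, adjusted p = 0.00306). Coch UMIs were found in 11.1%, 8.45%, 21.7% and 11.3% of Dpp4+ cells and in 21.1%, 18.1%, 29.3% and 28.3% of Dpp4-zero cells. Ednrb, the endothelin receptor type B gene, stood at 0, 23.3, 50.2 and 38.0 CPM against 25.4, 110.4, 91.8 and 213 CPM, with a log2 fold of -1.91 ± 0.28 (SE, adjusted p = 0.0106). Its 0 at 2 months v2 comes from 18 cells and lies within the floor of 3 UMIs, which is 21.4 CPM there. Igfbp4, which binds insulin-like growth factors, stood at 851, 292, 964 and 1127 CPM against 1374, 1489, 1687 and 2635 CPM, with a log2 fold of -1.22 ± 0.20 (SE, adjusted p = 0.0161). Ctgf, a matricellular target of TGF-beta, had 14.3, 16.1, 66.3 and 64.4 CPM against 77.9, 66.8, 86.4 and 215 CPM and a log2 fold of -1.36 ± 0.25 (SE, adjusted p = 0.0281). Its adjusted p was 0.0529 without the 2-month v2 and 0.0785 without the 18-month v2 library.

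Further lower genes with the same sign in 4 libraries were Cpxm2 (-1.44), the glutathione transferase gene Mgst3 (-1.36), Cdc42ep3 (-1.33), the annexin gene Anxa8 (-1.21) and Lrrc15 (-1.17). Cd200, a surface antigen used in the sort, stood at 122, 78.8, 122 and 85.3 CPM against 217, 194, 163 and 231 CPM, with a log2 fold of -0.98 ± 0.17 (SE, adjusted p = 0.0221). It was lower in each library, and its adjusted p was 0.0795 without the 18-month v2 library. That of Cpxm2 was 0.0573 and that of Anxa8 0.0622 without the 2-month v2 library, and that of Cpxm2 0.0971 without the 18-month v2 library. Itga9, the other sort antigen, had 28.6, 10.7, 50.2 and 38.8 CPM against 18.1, 18.9, 49.6 and 27.7 CPM and a log2 fold of 0.17 ± 0.23 (SE, adjusted p = 0.876). Cells of both sort gates were mixed, so the gate a cell came through is unknown and its part in the result was not tested.

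Of 20 papilla genes tested, 0 passed, 14 lay below 0 and the median was -0.24. Corin, a protease of the papilla, had a log2 fold of -0.45 ± 0.24 (SE, adjusted p = 0.519) and the transcription factor gene Sox2 one of 0.19 ± 0.42 (SE, adjusted p = 0.952). Wif1, an inhibitor of Wnt ligands, had 1508, 163, 2368 and 839 CPM against 1096, 478, 3537 and 1137 CPM. It was higher in Dpp4+ cells at 2 months v2 and lower in the other libraries, with a log2 fold of -0.47 ± 0.22 (SE, adjusted p = 0.448).

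**Figure D3:**
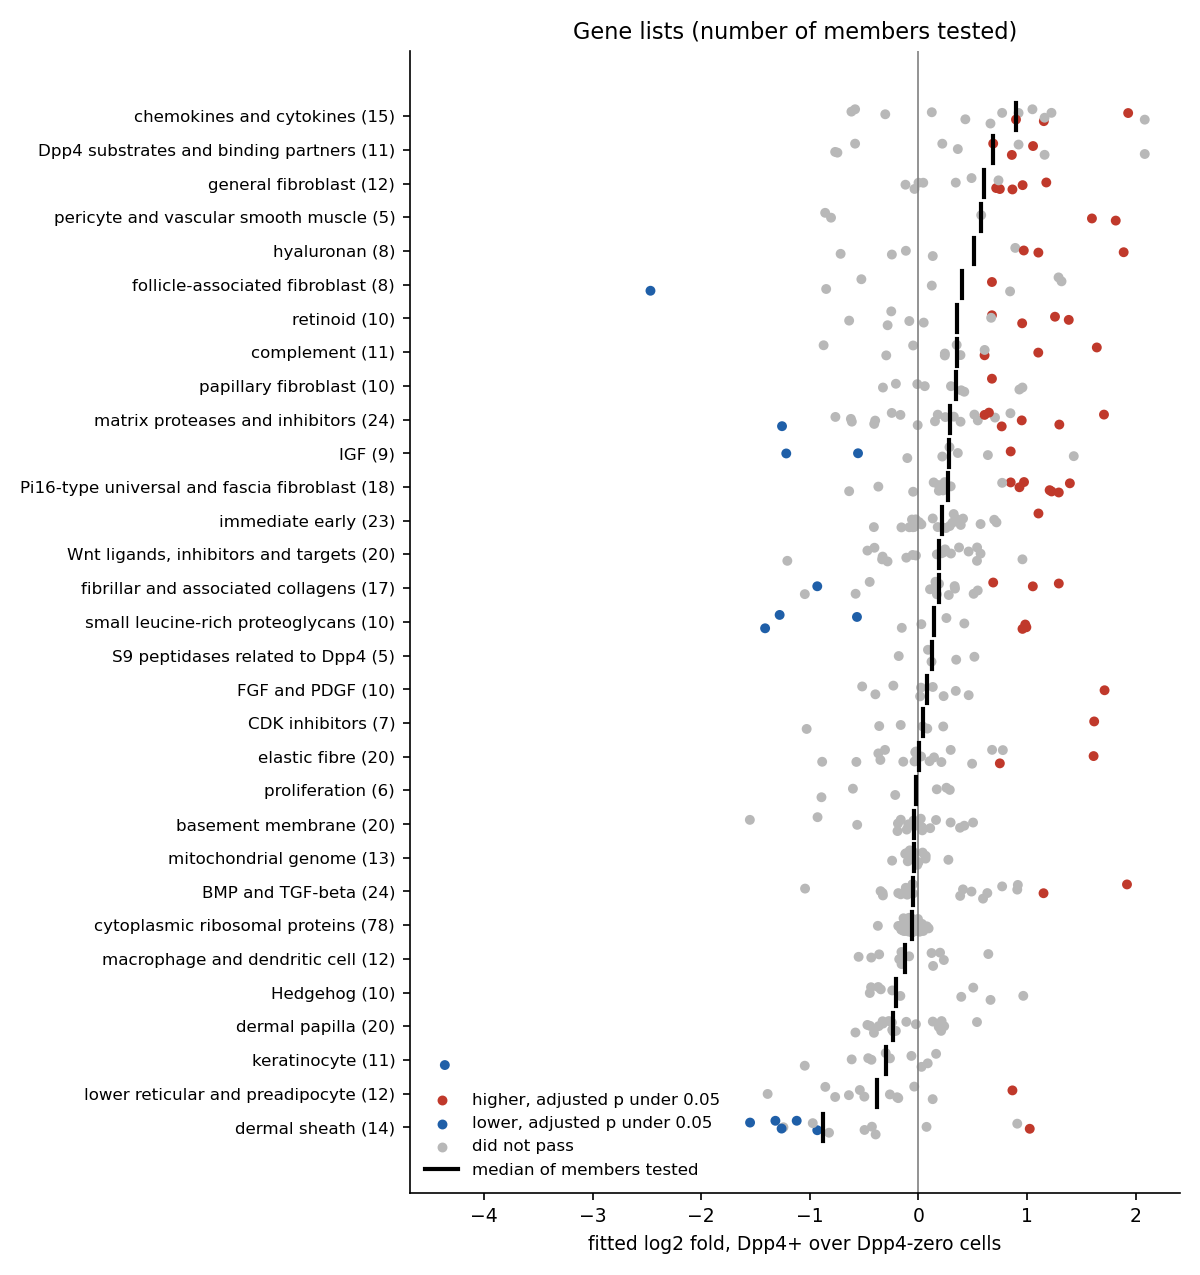
Fitted log2 folds of Dpp4+ over Dpp4-zero cells (x axis) for the tested members of gene lists (y axis, number tested in brackets), with 1 point per gene, red or blue where the edgeR adjusted p was under 0.05, and a black tick at the list's median. Lists with at least 5 members tested are drawn, among which the dermal sheath list has the lowest median (-0.88) and chemokines and cytokines the highest (0.90, or 0.41 without the 12-month v3 library), and small leucine-rich proteoglycans hold 3 genes called on each side.

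Among ligands and their inhibitors, single genes stood out. Grem1, a secreted antagonist of bone morphogenetic proteins, stood at 157, 351, 7.17 and 279 CPM against 45.3, 79.1, 7.37 and 74.4 CPM, with a log2 fold of 1.92 ± 0.23 (SE, adjusted p = 0.00513). It was higher in 3 of 4 libraries and low in both classes of the 2-month v3 library. At 2 months v2, 1 of 18 Dpp4+ cells held 54.5% of the Grem1 UMIs. With Tgfbi (1.15), 2 of 24 BMP and TGF-beta genes tested were higher and 0 lower, with a median of -0.05. Among 9 IGF genes Igfbp6 was higher, Igfbp4 and Igfbp7 (-0.56) were lower, and Igf1 was at 0.22. The receptor gene Fgfr4 was the 1 of 10 FGF and PDGF genes that passed, at 1.71 ± 0.29 (SE, adjusted p = 0.0172). It rested on 4 UMIs of Dpp4+ cells at 2 months v2 and was not tested without the 18-month v2 library. Of 20 Wnt genes and of 10 Hedgehog genes tested, 0 passed, with medians of 0.19 and -0.20. The orphan receptor gene Nr4a2 (1.11) was the 1 of 23 immediate early genes that passed, with a median of 0.22. Without the 18-month v2 library the adjusted p was 0.142 for Tgfbi and 0.0747 for Nr4a2, without the 2-month v2 library 0.0992 for Tgfbi and without the 2-month v3 library 0.0943 for Igfbp7.

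Fap, the peptidase most closely related to Dpp4, stood at 42.9, 0, 86.0 and 24.0 CPM against 25.4, 16.7, 45.5 and 29.4 CPM, with a log2 fold of 0.12 ± 0.41 (SE, adjusted p = 0.983), and 0 of 5 related S9 peptidase genes tested passed, beside 2.06% of all genes. Of 11 tested genes for proteins that Dpp4 is known to cut or bind, 3 were higher and 0 lower, with a median of 0.69. These were Fn1 (fibronectin), Cav1 (caveolin-1) and Col3a1, which are binding partners, and without the 18-month v2 library the adjusted p of Cav1 was 0.116. Fn1 stood at 1001, 630.5, 244 and 437 CPM against 411, 441, 99.9 and 219.6 CPM, higher in each library, with a log2 fold of 1.06 ± 0.13 (SE, adjusted p = 0.00602). Cxcl12, a chemokine that Dpp4 inactivates, had 322, 317, 44.8 and 92.3 CPM against 286, 303, 79.9 and 338 CPM and a log2 fold of -0.58 ± 0.32 (SE, adjusted p = 0.543). It was higher in Dpp4+ cells of the version 2 libraries and lower in those of the version 3 libraries.

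Markers of other cell types were counted in both classes. The pericyte gene Rgs5 stood at 0, 0, 3.58 and 0.776 CPM in Dpp4+ cells and was not tested, while Abcc9 and Kcnj8, which form a potassium channel of pericytes, were higher at 1.82 ± 0.38 (SE, adjusted p = 0.0428) and 1.60 ± 0.26 (SE, adjusted p = 0.015). The other pericyte genes tested, Notch3 (-0.80), Cspg4 (-0.86) and Ndufa4l2 (0.58), did not pass. The adjusted p of Abcc9 was 0.0872 without the 2-month v2 library and that of Kcnj8 0.149 without the 18-month v2 library. The pericyte list's sum ran from 127 to 858 CPM in Dpp4+ and from 149 to 482 CPM in Dpp4-zero cells. Keratinocyte genes summed to 304 to 10120 CPM in Dpp4+ and 521 to 14386 CPM in Dpp4-zero cells. A single cell held 60.2%, 97.7%, 76.7% and 39.5% of these UMIs in Dpp4+ cells and 53.8%, 43.6%, 26.8% and 53.2% in Dpp4-zero cells. Without that cell the sums were 1060, 254, 829 and 188 CPM against 7184, 1957, 2774 and 245 CPM, lower in Dpp4+ cells of all 4 libraries. Of 11 tested, Krt15 was lower (-4.36 ± 0.69 (SE, adjusted p = 0.0134)), although in the 2-month v2 library only Dpp4+ cells held it, and its adjusted p was 0.139 without the 2-month v3 and 0.238 without the 12-month v3 library. Macrophage and dendritic genes had 0 of 12 called and summed to 367 to 1809 against 349 to 2096 CPM. Endothelial genes summed to 14.3 to 21.4 against 7.26 to 33.6 CPM with 2 of 10 members at 0, and none was high enough to test. When cells with markers of other types were left out, 192 genes were higher and 67 lower. Of 78 ribosomal protein genes 0 passed, 68 lay below 0 with a median of -0.06, and their summed level was lower in Dpp4+ cells in 4 of 4 libraries.

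The lists were also read by the number of Dpp4 UMIs in a cell, as a description with no test. Sheath genes summed to 2888, 3101, 4370 and 5503 CPM in cells at 0, to 2571, 2233, 4142 and 2741 CPM at 1 UMI, and to 1287, 1623 and 2093 CPM at 2 or more in the 18-month v2, 2-month v3 and 12-month v3 libraries. The 2-month v2 library held 2 cells at 2 or more, too few to read. Retinoid genes summed to 1464, 1813, 1826 and 1462 CPM at 0 and to 2322, 3120.1, 2321 and 2684 CPM at 1 UMI. At 2 or more they summed to 3290.4, 3090.1 and 3066 CPM in those 3 libraries. The sums of both lists thus kept 1 order from 0 through 1 to 2 or more UMIs in each of the 3 libraries. Those of hyaluronan genes did not: they were higher at 1 UMI than at 2 or more in all 3. At 2 months v3 the retinoid sum was mostly Crabp1, at 1121, 1482 and 2268 CPM in that order, the last over 12 cells. Cyp26b1 stood at 180, 323 and 86.0 CPM there, so the members did not share the order of the sum. With Dpp4+ set at 2 or more UMIs against 0, 76 genes were higher and 99 lower, and the 32 lower genes still tested had a median log2 fold of -2.06 against -1.15.

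**Figure D4:**
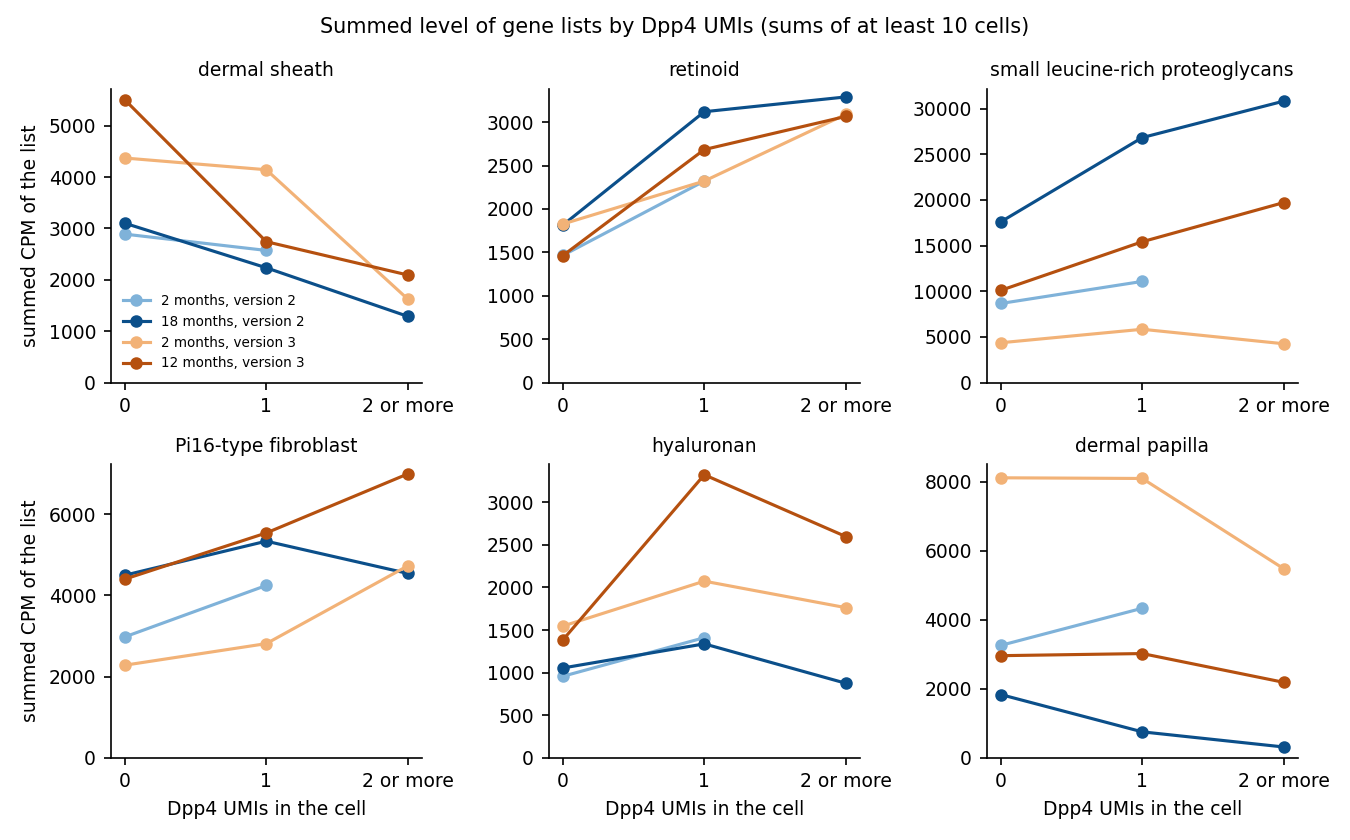
Summed CPM of 6 gene lists (y axes) in unmarked mesenchymal cells with 0, 1 or 2 or more Dpp4 UMIs (x axes), 1 line per library, with sums of fewer than 10 cells left out. The sums of sheath genes step down and those of retinoid genes step up with the Dpp4 UMIs of the cell in each library, while papilla and hyaluronan genes follow no single order. In the 2-month v3 library the retinoid sum is mostly Crabp1.

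Whether the difference between Dpp4+ and Dpp4-zero cells changed with age was tested by an interaction of class and age (12 and 18 months against 2), with chemistry in the model, which left 1 residual degree of freedom. In edgeR 0 of 8207 genes passed (0%), 287 had an unadjusted p under 0.05 (3.5%), and DESeq2 called 1. Without the 2-month v2, 2-month v3 or 12-month v3 library the edgeR counts were 9, 13 and 11, and without the 18-month v2 library 0. The smallest p-values belonged to Sprr1a, Cdkn1c, Ube2c, Wfdc12 and Aqp3, with adjusted p-values of 0.268, 0.404, 0.462, 0.462 and 0.462. For Sprr1a, Ube2c and Aqp3 a single Dpp4+ cell held 95.7%, 100% and 98.3% of the UMIs of a library. On simulated counts this test recovered 26% of 4-fold differences, so 0 calls do not show that the classes differed alike at both ages.

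Within Dpp4+ cells, the 12-month and 18-month libraries were compared with the 2-month libraries over 6638 genes with chemistry as a covariate and 1 residual degree of freedom. In the older libraries 36 genes were higher (0.542%) and 17 lower (0.256%), 53 in all (0.798%), and 790 genes (11.9%) had an unadjusted p under 0.05. Cdkn2a, the locus of the cell cycle inhibitor p16, stood at 0, 288, 0 and 55.8 CPM in Dpp4+ cells, so both 2-month libraries were at 0. Against the floor of 3 UMIs per library it was at least 13.4-fold higher at 18 months v2 and at least 10.4-fold higher at 12 months v3 (adjusted p = 0.0101). It was found in 26 of 71 and 10 of 115 Dpp4+ cells of the older libraries. Dpp4-zero cells held it at 1.81, 108, 2.87 and 14.7 CPM, so the older libraries were higher there too. Dpp4+ exceeded Dpp4-zero cells in the 2 older libraries only, with a log2 fold over the 4 libraries of 1.62 ± 0.28 (SE, adjusted p = 0.021). That difference was not tested without the 18-month v2 library. One cell held 37.5% of the Cdkn2a UMIs of Dpp4+ cells at 12 months v3. Its call by age was lost without the 2-month v3 library (adjusted p = 0.975).

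Gpnmb, a transmembrane glycoprotein of lysosome-rich cells, stood at 92.9, 686, 21.5 and 183 CPM in Dpp4+ cells, with a log2 fold of the older libraries of 3.14 ± 0.32 (SE, adjusted p = 0.0101). Cyp2f2, a cytochrome P450, stood at 107, 423, 30.5 and 503 CPM, with a log2 fold by age of 3.21 ± 0.48 (SE, adjusted p = 0.0358). Il6 had a log2 fold by age of 3.23 ± 0.34 (SE, adjusted p = 0.0101) and the matrix glycoprotein gene Tnc one of 4.15 ± 0.36 (SE, adjusted p = 0.00592). Each of these genes was higher in the older library within both chemistries. C1qtnf3 (3.19), Sectm1a (3.50) and Ctla2a (5.86) were higher as well. Their 2-month v2 and 2-month v3 sums were small: 2 and 2 UMIs for C1qtnf3, 1 and 5 for Sectm1a and 0 and 3 for Ctla2a. Those of Tnc were 4 and 5 UMIs and those of Il6 1 and 16. At 18 months v2, Tnc was found in 7 of 71 Dpp4+ cells, and 1 cell held 46.7% of its UMIs. Krt6a and Wfdc12 also passed, but 1 cell of the 18-month v2 library held 395 of 395 Krt6a UMIs and 1 cell held 75.5% of its Wfdc12 UMIs.

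Genes known from the papilla were among those lower with age in Dpp4+ cells. Sostdc1, an antagonist of BMP and Wnt signals, stood at 1272, 107, 1534 and 251 CPM, with a log2 fold by age of -2.91 ± 0.31 (SE, adjusted p = 0.0101). A single Dpp4+ cell held 53.9%, 98.3%, 44.5% and 14.8% of the Sostdc1 UMIs in the 4 libraries. Rspo3, which amplifies Wnt signals, stood at 214, 32.2, 731 and 122 CPM, with a log2 fold by age of -2.50 ± 0.30 (SE, adjusted p = 0.013). For Rspo3 these one-cell shares were 53.3%, 27.8%, 34.3% and 10.8%. Of 18 papilla genes tested by age 2 were lower (Rspo3 and Hhip), all 18 lay below 0 and the median was -1.37, beside -0.02 over all genes tested. The papilla gate took 33.3% of Dpp4+ cells at 2 months v2 against 2.82% at 18 months v2, and 41.3% at 2 months v3 against 27.0% at 12 months v3. In such sums, fewer cells of a type and less RNA per cell cannot be told apart. Other genes had larger falls: Gm14226 had the largest of the 10 named by the rule, at -6.71 ± 0.51 (SE, adjusted p = 0.00411). It held 5, 0, 153 and 3 UMIs in Dpp4+ cells of the 4 libraries. Smpd3 (-5.17), Ifi27l2a (-2.84) and F3 (-2.65) were also lower, and 1 cell held all 33 Smpd3 UMIs at 2 months v2. In that library 1 Dpp4+ cell held 88.2% of the F3 UMIs and 1 held 65.9% of the Ifi27l2a UMIs. At 2 months v3, 1 Dpp4+ cell held 75.4% of the Ifi27l2a UMIs. Among the lower genes Klk7, Dapl1, Edn1 and Klk1 rested on 1 cell of the 2-month v3 library with 98.7%, 92.9%, 87.5% and 72.0% of the UMIs. No gene passed by age in edgeR when papilla-gated and sheath-gated cells were left out, without the chemistry term or without the 2-month v3 library, with 274, 286 and 266 genes at an unadjusted p under 0.05. Without the 2-month v2 library 3 genes were higher and 19 lower, without the 18-month v2 library 24 and 67, and without the 12-month v3 library 44 and 43. Of the 53 genes called by age 7, 19, 0 and 20 kept their call when the 2-month v2, 18-month v2, 2-month v3 and 12-month v3 library was left out, so 0 kept it in every case. Rspo3 and Sostdc1 lost it in all 4: in that order the adjusted p was 0.121, 0.760, 0.975 and 0.0908 for Rspo3, with log2 folds of -2.98, -1.88, -1.41 and -3.51, and 0.166, 0.359, 0.975 and 0.129 for Sostdc1.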

How the data were processed

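The authors deposited UMI counts, whole numbers for each gene in each barcode. Per the submitters' processing notes, STAR, Cell Ranger 2.0.1 and Seurat 2.1.0 were used on mm10 or GRCm38.p5, without roles, and per the file headers the version 3 matrices came from software version 3.0.1. Counts of the same symbol were summed (27999 entries, 27934 symbols). Cells were gated as described above, UMIs were summed per library and class, and CPM are per 1000000 summed UMIs. Sums were tested in edgeR 4.0.16 under R 4.3.3 with its two-sided quasi-likelihood test (TMM, default filter on low counts, library as block, 3 residual degrees of freedom), without the 4 genes of the rule. Each SE was taken as the size of the log2 fold over the root of its F statistic. Library pairs the sums because both classes come from the same mice, and deviations of the classes correlated at 0.24, 0.58, 0.64 and 0.65 within libraries. Between different libraries they correlated at -0.59 to 0.26. The 0.26 was for 18-month v2 Dpp4+ with 2-month v2 Dpp4-zero cells, above the 2-month v2 library's own 0.24. On simulated counts of the main comparison over 8120 genes, 98% of 4-fold and 39% of 2-fold changes were recovered, with 3 false calls among 140. All simulations used the same dispersion for every gene and changed only well-counted genes. They held no single cells that dominate a gene, so their rates need not hold for the real sums. Summed UMIs per class ran from 139886 to 2996737, and intervals and floors (3 UMIs) cover counting error only. DESeq2 1.42.0, other scalings, filters, gates and left-out libraries were alternatives. One of them, without barcodes shared by the version 3 libraries, was chosen after seeing the data. Named genes were the 15 largest called folds in each direction with an average log2 CPM of at least 5 and the same sign in 4 libraries, up to 4 called members of each of 33 lists in each direction, defining list members, and the 10 largest by age in each direction. Mt1, Timp2, Ackr3, Clec3b, Cd34 and Hhip, and list members that did not pass, were named after their values were seen. Where age was tested without a library, the chemistry term was dropped. The cells, lists and rules were chosen with earlier results of these data known. Cells of a library are not replicates, and whether the 2 mice of a library differed cannot be seen.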

Additional observations from a re-analysis of the deposited data

How the results depend on the processing

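The contrast of Dpp4+ and Dpp4-zero cells rests on pairing by library. With no replicate block, 0 genes were higher and 0 lower in edgeR, with 580 at an unadjusted p under 0.05. With papilla-gated and sheath-gated cells left out, the counts were 0 and 0. Leaving out 1 library gave 4 to 154 genes higher and 0 to 56 lower: 4 and 0 without the 12-month v3, 71 and 29 without the 18-month v2, 121 and 34 without the 2-month v2, and 154 and 56 without the 2-month v3 library. Counts moved to 314 and 195 with no filter on low counts, 73 and 19 with Dpp4-zero cells matched on UMI totals, 76 and 99 with Dpp4 at 2 or more UMIs, and 1099 and 692 with eYFP cells kept in. Genes lower moved to 97 with Col1a1 at 20 or more UMIs and to 67 without cells holding markers of other types. DESeq2 gave 134 and 37. Reversed values were Krt15 at 1.05 with eYFP cells kept in and Krt14 at -2.90 with cells thinned to 3000 UMIs.

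By age in Dpp4+ cells, genes higher numbered 65 with DESeq2, 14 with DESeq2 size factors, 287 with no filter, and 0 without papilla-gated and sheath-gated cells or without the chemistry term. Genes lower numbered 5 with DESeq2 size factors, 150 with no filter, 27 with thinned cells, and 0 in the latter 2 settings. Leaving out 1 library gave 0 to 44 higher and 0 to 67 lower: 0 and 0 without the 2-month v3, 3 and 19 without the 2-month v2, 24 and 67 without the 18-month v2, and 44 and 43 without the 12-month v3 library. Without the 18-month v2 library Wfdc12 was at -1.45, and leaving out 1 library put Klk1 between -9.28 and 7.69, the latter without the 2-month v3 library. The contrast by age gave 1 gene with DESeq2, 109 with no filter, 13 with thinned cells, 14 without papilla-gated and sheath-gated cells, 1 without chemistry, and 0 to 13 leaving out 1 library: 9 without the 2-month v2, 13 without the 2-month v3 and 11 without the 12-month v3 library. The cause was not tested in any of these.

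The Dpp4+ shares became 2.13%, 7.27%, 4.11% and 9.14% with Dpp4 at 2 or more UMIs, and 7.94%, 14.9%, 7.97% and 11.1% with eYFP cells kept in. Thinned to 3000 UMIs they were 9.14%, 14.2%, 6.65% and 11.4%. Without papilla-gated and sheath-gated cells they were 29.4% at 2 months v2, 37.4% at 18 months v2 and 41.4% at 12 months v3. With Col1a1 at 20 or more UMIs the 18-month v2 share was 31.4%.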
